A study of Mus musculus with 6 samples.

Results

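The genes of the AP-1 transcription factor and of the immediate early response were followed through RNA sequencing of spermatogonia, the germ cells from which spermatogenesis starts, that had been sorted for bright or dim ID4-GFP. The members were 10 of the 31918 genes in the deposited expression table and were taken by symbol: the FOS family genes Fos, Fosb, Fosl1 and Fosl2, the JUN family genes Jun, Junb and Jund, and the early response genes Atf3, Ier2 and Ier3. The cells came from testes of postnatal day 8 mouse pups of the Id4-eGfp (LT11) genotype, in which an eGFP transgene reports on Id4, and both groups carried this transgene. Bright, labelled high for Id4 expression, and Dim, labelled low, had 3 libraries each, and the comparison asks how the transcriptomes of these groups differ. Bright 3 is given apart throughout, since it holds RNA of somatic cells. The groups are gates on a reporter and not purified stages. Nothing in the labels ties the libraries to separate animals, so p-values here cover no more than the spread among 6 samples, part of which may be technical.

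AP-1 is a pair of leucine zipper proteins that binds DNA as a dimer, made of a FOS protein with a JUN protein or of JUN proteins with each other. Most of its genes are immediate early genes: a growth factor, cytokine or stress signal switches them on within minutes through kinases of the MAP kinase group, without new protein synthesis, and their transcripts decay fast. Tissue dissociation and cell sorting are known to induce several of them as well. How long these cells were handled is not given in the sources used here, and its part in the levels was not tested.

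The 250 bases before the RefSeq transcript start (RefSeq sequences, build GRCm38.p6) are shown for 4 members on which the results turn: Fos, Jun and Atf3, which were at least 4-fold higher in Bright 3 than in the other Bright libraries, and Ier3, which had the largest fold change of the members between the groups with Bright 3 apart. Capitals mark a match to a motif that ATF, CREB or AP-1 proteins are known to bind.
Fos, chr12:85473640-85473889, plus strand: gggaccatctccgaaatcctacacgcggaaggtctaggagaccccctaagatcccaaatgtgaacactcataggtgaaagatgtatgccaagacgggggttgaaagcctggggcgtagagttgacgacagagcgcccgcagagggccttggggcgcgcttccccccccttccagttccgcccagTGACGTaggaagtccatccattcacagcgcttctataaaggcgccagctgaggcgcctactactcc
Jun, chr4:95052223-95052472, minus strand: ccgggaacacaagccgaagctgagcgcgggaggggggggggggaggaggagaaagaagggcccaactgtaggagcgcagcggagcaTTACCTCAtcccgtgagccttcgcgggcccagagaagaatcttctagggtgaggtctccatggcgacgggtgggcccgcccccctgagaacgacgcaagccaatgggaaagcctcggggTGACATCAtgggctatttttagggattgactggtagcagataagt
Atf3, chr1:191183334-191183583, minus strand: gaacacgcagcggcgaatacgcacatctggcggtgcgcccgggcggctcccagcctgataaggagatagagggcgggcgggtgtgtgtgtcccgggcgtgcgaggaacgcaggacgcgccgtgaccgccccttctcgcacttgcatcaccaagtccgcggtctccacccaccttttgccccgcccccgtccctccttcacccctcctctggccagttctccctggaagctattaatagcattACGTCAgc
Ier3, chr17:35821463-35821712, plus strand: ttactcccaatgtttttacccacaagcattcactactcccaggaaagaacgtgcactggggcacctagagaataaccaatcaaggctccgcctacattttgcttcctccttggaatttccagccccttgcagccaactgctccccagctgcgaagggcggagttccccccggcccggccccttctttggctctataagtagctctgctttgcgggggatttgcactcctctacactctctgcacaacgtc

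Windows were found for 8 of the 10 members, not for Fosl1 and Ier2, and were searched on both strands. TGACGT, the core of the cyclic AMP response element, stood 66 to 61 bases before the start of Fos on the plus orientation and 8 to 3 bases before that of Atf3 on the minus orientation, and 6.47% of 32851 windows of this length held it. The Jun window held the AP-1-like elements TTACCTCA, 164 to 157 bases before the start, and TGACATCA, 45 to 38 bases before it, which 0.728% and 2.93% of windows held. TGACTCA, the classical AP-1 element, was in 4.46% of windows and in 0 of the 8 members' windows, and the CArG box bound by serum response factor was in 1.47% and also in 0 of 8. Bases further upstream or after the start were not searched. These counts of 0 therefore do not show that the genes lack such sites. The Ier3 window held none of these letters. The RefSeq starts of Atf3 and Ier3 lie inside the gene spans of the deposited table. The motifs were chosen after the sequences had been seen, and a match describes letters only.

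In the deposited table Fos spanned chr12:85473890-85477273, Jun chr4:95049034-95052222, Atf3 chr1:191170296-191218039, Ier2 chr8:84661331-84662852 and Ier3 chr17:35821684-35822923, each identical to its span on GRCm38. The spans of 7 of the 10 members were identical in this way, and those of Fosl1, Junb and Jund were not. Jun, Junb, Jund and Ier2 are annotated as single exons. A gene on the opposite strand overlaps 5 members, namely Ccdc85b with Fosl1, Junos with Jun, Prdx2 with Junb, Gm11175 with Jund and Gm24748 with Atf3. The overlap is one of whole gene spans as annotated on GRCm38, and exons were not compared. Library strandedness is not given in the sources used here. Reads from any stretch that both genes of a pair transcribe therefore cannot be told apart by strand.

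All 6 libraries showed the labelled sort and tissue. Id4 was at 28.5, 42.7 and 39.7 FPKM in Bright and at 3.75, 4.71 and 5.39 FPKM in Dim, and Kit, the receptor of differentiating spermatogonia, was at 17.2 to 30.5 FPKM in Bright and 93.8 to 116 FPKM in Dim. The summed level of 11 germ cell markers was 1440 to 1705.2 FPKM in Bright and 1749.7 to 1928 FPKM in Dim. Somatic markers set Bright 3 apart: 6 Leydig cell markers summed to 1801 FPKM there and to 1.65 to 2.56 FPKM in the other 5 libraries, and 8 Sertoli cell markers to 196 against 8.52 to 22.0 FPKM, with no marker of these lists at 0 in Bright 3. The 6 peritubular myoid markers summed to 9.45, 13.2 and 136 FPKM in Bright and to 5.55 to 8.56 FPKM in Dim, and the 7 stromal markers to 36.6, 33.1 and 206 FPKM in Bright and 25.4 to 28.4 FPKM in Dim. The 6 endothelial markers summed to 8.57, 7.06 and 22.1 FPKM in Bright and to 2.97 to 3.22 FPKM in Dim, and the 4 erythroid markers found, of 5 listed, to 0.682, 3.84 and 9.38 FPKM in Bright and 0.804, 4.72 and 1.89 FPKM in Dim. Depth was put at roughly 21400000, 29500000 and 35500000 reads for Bright and 25700000, 30900000 and 33900000 for Dim, from the size of the smallest steps in FPKM. At that depth the fewest reads behind any member's value, those of Atf3 in Bright 1, number roughly 36.0.

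In the main fits, with and without Bright 3, Ier3 and Ier2 were called higher in Bright than in Dim. Only the call of Ier3 with Bright 3 apart held in every alternative fit. Ier2 in both fits and Ier3 with all 6 libraries were not called when genes with low values were kept in. Their calls were also lost when certain single libraries were left out, as given below. With all 6 libraries neither was called with the replicate number as a block. The other 8 members were not called in either main fit. With Bright 3 apart (Bright 1 and 2 against Dim 1 to 3), limma on log2(FPKM + 1), adjusted over the 13416 genes that reached 1 FPKM in 3 or more libraries, called 2 members higher and 0 lower at an adjusted p under 0.05. All 10 members passed that filter. The same fit called 10.6% of all genes higher and 8.37% lower. At an unadjusted p under 0.05 it had 3 members higher and 1 lower, against 17.9% and 15.9% of all genes. With all 6 libraries it again called 2 members higher, against 12% of genes, and 0 lower, against 10.5%, and at an unadjusted p under 0.05 it had 3 higher and 0 lower, against 17.7% of genes in each direction. The members' median log2 fold change, Bright minus Dim, was 0.54 with Bright 3 apart and 1.33 with all 6 libraries, beside -0.01 and -0.03 for all genes tested. Since these are bulk samples, fewer cells of a type and less RNA per cell cannot be told apart in any of these values.

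**Figure D1:**
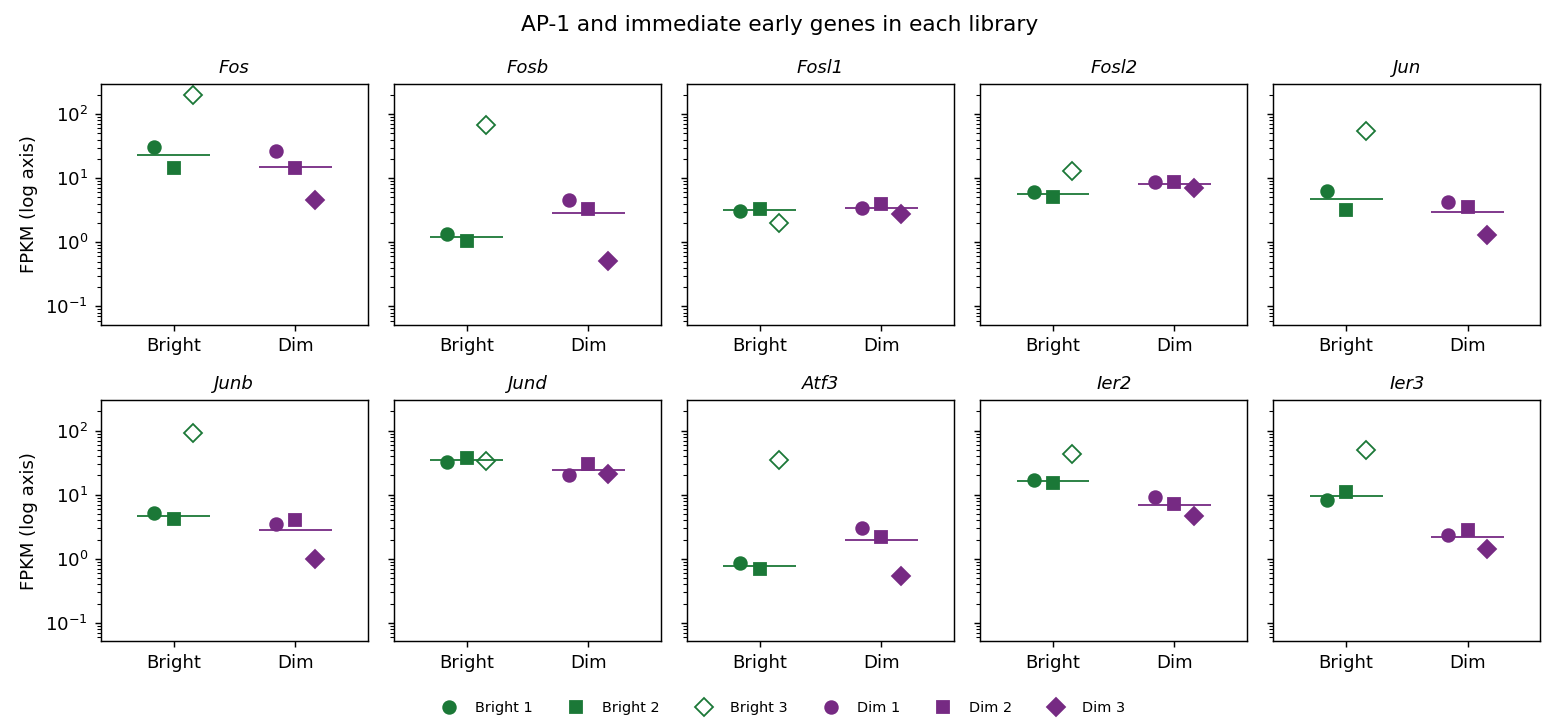
FPKM of the 10 members in each library on a log axis, Bright left of Dim, with Bright 3 and Dim 3 as marked points and a bar at the mean of Bright 1 and 2 and of the 3 Dim libraries. Bright 3 is the highest point for 8 members, at 202 FPKM for Fos, and Dim 3 is the lowest of all 6 for 7 members, at 4.52 FPKM for Fos.

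Ier3 (IEX-1), a stress-inducible membrane protein that is a substrate of the kinase ERK, had 8.37 and 11.0 FPKM in Bright 1 and 2 and 49.2 FPKM in Bright 3, against 2.39, 2.78 and 1.44 FPKM in Dim. Each Bright library was above each Dim library, and Bright 3 was far above both others. Without Bright 3 the mean in Bright was 4.40 times that in Dim (9.70 FPKM against 2.203 ± 0.69 FPKM, SD, n = 3), a log2 fold change of 1.75 ± 0.23 (SE, limma adjusted p = 0.00543). That call held when any 1 of these 5 libraries was left out, at adjusted p = 0.00923 to 0.0301, and with no filter on low values (0.0253). With Bright 3 included the log2 fold change was 2.50 ± 0.66 (adjusted p = 0.0485), and there the call was lost with no filter (0.0579) and when Bright 2 (adjusted p = 0.101), Dim 1 (0.183), Dim 2 (0.176) or Dim 3 (0.152) was left out. It was lost as well with the replicate number as a block.

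Ier2, a short nuclear protein induced by growth factors, had 17.2 and 15.5 FPKM in Bright 1 and 2 and 42.5 FPKM in Bright 3, against 9.13, 7.14 and 4.61 FPKM in Dim. The groups did not overlap, and the lowest Bright library stood above the highest Dim library. Without Bright 3 the Bright mean was 2.35 times the Dim mean, with a log2 fold change of 1.16 ± 0.26 (SE, limma adjusted p = 0.0247). This call was less firm than that of Ier3: it was lost without Bright 1 (adjusted p = 0.0993), Bright 2 (0.0759) or Dim 2 (0.0512), and with no filter on low values (0.0732). With all 6 libraries the log2 fold change was 1.61 ± 0.40 (adjusted p = 0.0296), and the call was lost with no filter (0.0623) and when Bright 1 (0.0535), Dim 1 (0.0851), Dim 2 (0.126) or Dim 3 (0.0911) was left out. Here too the call was lost with the replicate number as a block.

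The summed endothelial, stromal and myoid markers were also higher in Bright 1 and 2 than in every Dim library. Most stromal and myoid markers did not share this direction. The mean of Bright 1 and 2 was below that of Dim for Dcn, Col1a2, Col3a1, Lum and Nr2f2 (ratios 0.75, 0.67, 0.66, 0.53 and 0.36). Only Col1a1 (1.26) and Pdgfra (4.82) were above it among the stromal markers. Of the myoid markers, Acta2, Myh11, Cnn1 and Des were below (0.88, 0.71, 0.54 and 0.90), and Tagln (1.25) and Myl9 (2.79) above. With Bright 3 apart limma called 3 of 4 tested endothelial markers higher (Kdr, Cdh5 and Tek), 1 of 6 stromal markers (Pdgfra, a growth factor receptor, at 6.13 and 6.46 FPKM in Bright 1 and 2 and 1.19 to 1.53 FPKM in Dim, adjusted p = 0.00186) and 1 of 3 myoid markers (Myl9, a myosin light chain, at 5.64 and 8.49 FPKM in Bright 1 and 2 and 2.18 to 2.91 FPKM in Dim, adjusted p = 0.0112). Their part in the differences of Ier2 and Ier3 was not tested.

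**Figure D2:**
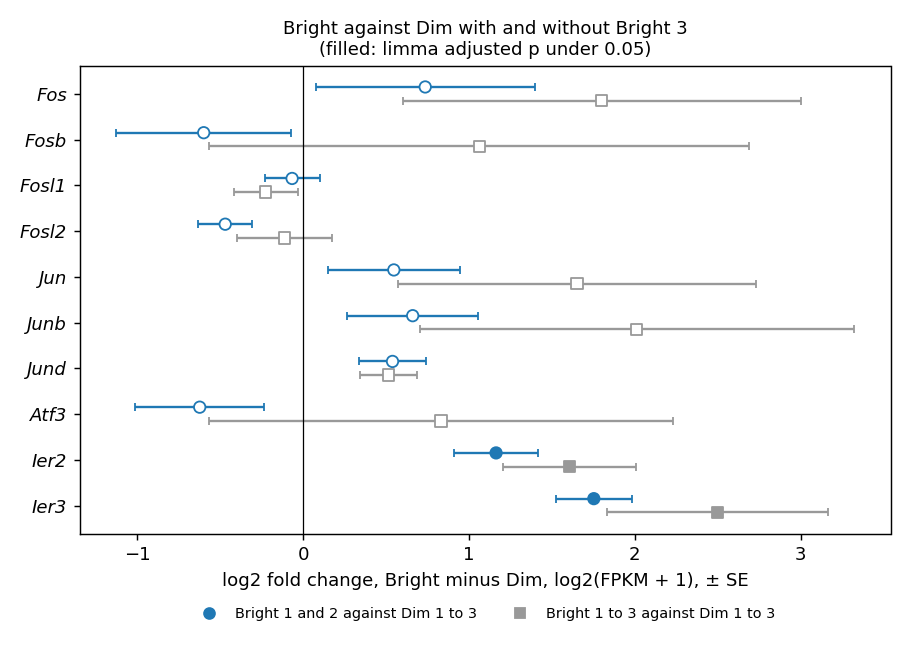
Log2 fold change, Bright minus Dim, on log2(FPKM + 1) with its SE for each member, with Bright 3 apart (circles) and with all 6 libraries (squares), filled where the limma adjusted p was under 0.05. Ier2 and Ier3 are filled in both fits, and Fosb and Atf3 lie below 0 with Bright 3 apart and above 0 with it.

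Fos, the partner that gives AP-1 dimers strong activating ability, spread more within each group than between them. It had 30.9 and 14.4 FPKM in Bright 1 and 2 and 202 FPKM in Bright 3, against 26.4, 14.5 and 4.52 FPKM in Dim. The values of Bright 1 and 2 lay close to those of Dim 1 and 2, with Bright 3 far above and Dim 3 below the rest. The log2 fold change was 0.74 ± 0.66 with Bright 3 apart (limma adjusted p = 0.489) and 1.80 ± 1.20 with all 6 libraries (0.358).

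Fosb, a FOS family member with a product known for its persistence in neurons, had 1.33 and 1.06 FPKM in Bright 1 and 2 and 68.3 FPKM in Bright 3, against 4.60, 3.34 and 0.505 FPKM in Dim. Dim 1 and 2 were above Bright 1 and 2, while Dim 3 was the lowest library, so that the groups overlapped. The log2 fold change was -0.60 ± 0.53 with Bright 3 apart (limma adjusted p = 0.477) and 1.06 ± 1.63 with it (0.688), which is a change of sign by 1 library.

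Fosl2 (FRA-2) and Fosl1 (FRA-1) encode FOS proteins that lack the strong activating domain of FOS. Fosl2 had 6.03 and 5.11 FPKM in Bright 1 and 2 and 12.7 FPKM in Bright 3, against 8.61, 8.78 and 6.97 FPKM in Dim. Bright 1 and 2 were below every Dim library and Bright 3 was above all, and the log2 fold change without Bright 3, -0.47 ± 0.16, was not called (limma adjusted p = 0.0928, unadjusted p = 0.0243). Fosl1 and Jund were the members in which Bright 3 was not the highest library. Fosl1 had 3.05, 3.31 and 2.00 FPKM in Bright, against 3.46, 3.96 and 2.79 FPKM in Dim, and Bright 3 was here the lowest library. Its log2 fold change was -0.07 ± 0.17 with Bright 3 apart (adjusted p = 0.818) and -0.23 ± 0.19 with all 6 libraries (adjusted p = 0.441).

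Jund, the JUN protein that most cells make without stimulation, had the highest mean of the members in both groups with Bright 3 apart, at 35.0 FPKM in Bright 1 and 2 and 24.1 ± 5.6 FPKM in Dim (SD, n = 3). It had 32.4, 37.6 and 33.1 FPKM in Bright, against 20.6, 30.6 and 21.2 FPKM in Dim. Every Bright library was above every Dim library, and Bright 3 lay between Bright 1 and 2, unlike in most other members. The log2 fold change was 0.54 ± 0.20 with Bright 3 apart (limma adjusted p = 0.114) and 0.51 ± 0.17 with all 6 libraries (0.0647), neither of them called. Among the fits with 1 library left out, Jund was called higher only without Dim 2, at adjusted p = 0.0393 with Bright 3 apart and 0.0197 with it. It was also called with all 6 libraries under trimmed mean scaling (adjusted p = 0.0492). With the replicate number as a block it was called with all 6 libraries (limma adjusted p = 0.00515), where 5453 of 13416 genes were called. With Bright 3 apart the block called it too, in a fit that called more genes still.

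Jun, the founding member of its family and a target of the kinase JNK, had 6.29 and 3.21 FPKM in Bright 1 and 2 and 54.0 FPKM in Bright 3, against 4.20, 3.54 and 1.31 FPKM in Dim. As with Fos, Bright 1 and 2 overlapped Dim 1 and 2, and Dim 3 was the lowest. Junb, a JUN protein with weaker activating ability, had 5.13 and 4.18 FPKM in Bright 1 and 2 and 92.4 FPKM in Bright 3, against 3.49, 4.03 and 1.01 FPKM in Dim. Its groups did not overlap, although Bright 2 and Dim 2 differed little. With Bright 3 apart the log2 fold changes were 0.55 ± 0.40 for Jun (limma adjusted p = 0.389) and 0.66 ± 0.39 for Junb (0.294), and with all 6 libraries they were 1.65 ± 1.08 (0.348) and 2.01 ± 1.31 (0.347).

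Atf3, a stress-induced partner of JUN proteins that can repress transcription, had the lowest mean of the members in both groups with Bright 3 apart. It had 0.849 and 0.687 FPKM in Bright 1 and 2 and 35.4 FPKM in Bright 3, against 3.08, 2.19 and 0.549 FPKM in Dim. Its order over the libraries was that of Fosb: Bright 3 highest, then Dim 1 and 2, then Bright 1 and 2, with Dim 3 at the bottom. The log2 fold change was -0.62 ± 0.39 with Bright 3 apart (limma adjusted p = 0.315) and 0.83 ± 1.40 with it (0.718).

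By mean level without Bright 3, the members ran from Jund (35.0 FPKM) through Fos (22.6), Ier2 (16.3), Ier3 (9.70), Fosl2 (5.57), Jun (4.75), Junb (4.65), Fosl1 (3.18) and Fosb (1.19) to Atf3 (0.768) in Bright. In Dim they ran from Jund (24.1 FPKM) through Fos (15.1), Fosl2 (8.12), Ier2 (6.96), Fosl1 (3.40), Jun (3.02), Junb (2.84), Fosb (2.81) and Ier3 (2.203) to Atf3 (1.94). Neighbours whose libraries overlapped, such as Jun and Junb in Bright or Jun, Junb and Fosb in Dim, do not differ beyond their spread.

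Over the members, groups that did not overlap were found for 4 genes higher in Bright (Junb, Jund, Ier2 and Ier3) in either fit, where 25.5% of all genes did so without Bright 3 and 20.4% with it. In the other direction 1 member, Fosl2, was lower without Bright 3, against 24.9% of genes, and 0 were lower with it, against 20.8%.

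The members' largest differences lay between single libraries. On the log2(FPKM + 1) scale Bright 3 was at least 4-fold (a difference of 2) above the mean of Bright 1 and 2 in 6 of the 10 members, Fos, Fosb, Jun, Junb, Atf3 and Ier3, and 1.39% of all genes tested were. In FPKM the ratio of Bright 3 to the mean of Bright 1 and 2 was 57.3 for Fosb, 46.1 for Atf3, 19.9 for Junb, 11.4 for Jun, 8.92 for Fos, 5.07 for Ier3, 2.60 for Ier2 and 2.29 for Fosl2, and it was 0.946 for Jund and 0.629 for Fosl1. Bright 3 was thus the highest of all 6 libraries in 8 of the members, and not in Jund and Fosl1. The somatic marker sums given above were highest in Bright 3 as well, and their part in the members' levels was not tested.

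Dim 3 stood apart in the other direction. On the same scale it was at least 2-fold (a difference of 1) below the mean of Dim 1 and 2 in Fos, Fosb, Jun, Junb and Atf3, 5 of the 10 members, and 0.507% of all genes tested were. Dim 3 minus the mean of Dim 1 and 2 was -1.90 for Fos, -1.71 for Fosb, -1.24 for Junb, -1.22 for Atf3, -1.07 for Jun, -0.69 for Ier2 and -0.55 for Ier3. Fosl1, Fosl2 and Jund differed less, at -0.31, -0.28 and -0.24.

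Macrophage markers separated the libraries in a like way. The 8 markers summed to 2.54, 3.14 and 129.65 FPKM in Bright and to 50.3, 56.6 and 3.04 FPKM in Dim, and Bright 3 was the highest library in 6 of the 8. Lyz2, the lysozyme of macrophages, was at 0.0386, 0.742 and 65.4 FPKM in Bright and at 21.2, 24.6 and 0.890 FPKM in Dim, while Csf1r and Fcgr1 were at 0 in Bright 1 and C1qa at 0 in Bright 2. Dim 1 and 2, with their higher marker sums, also had more Fosb and Atf3 than Bright 1, Bright 2 and Dim 3. The part of macrophage RNA in the members' levels was not tested. Across the other members the order was looser, since Fos and Jun were about as high in Bright 1 and 2, where the markers were low, as in Dim 1 and 2.

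**Figure D3:**
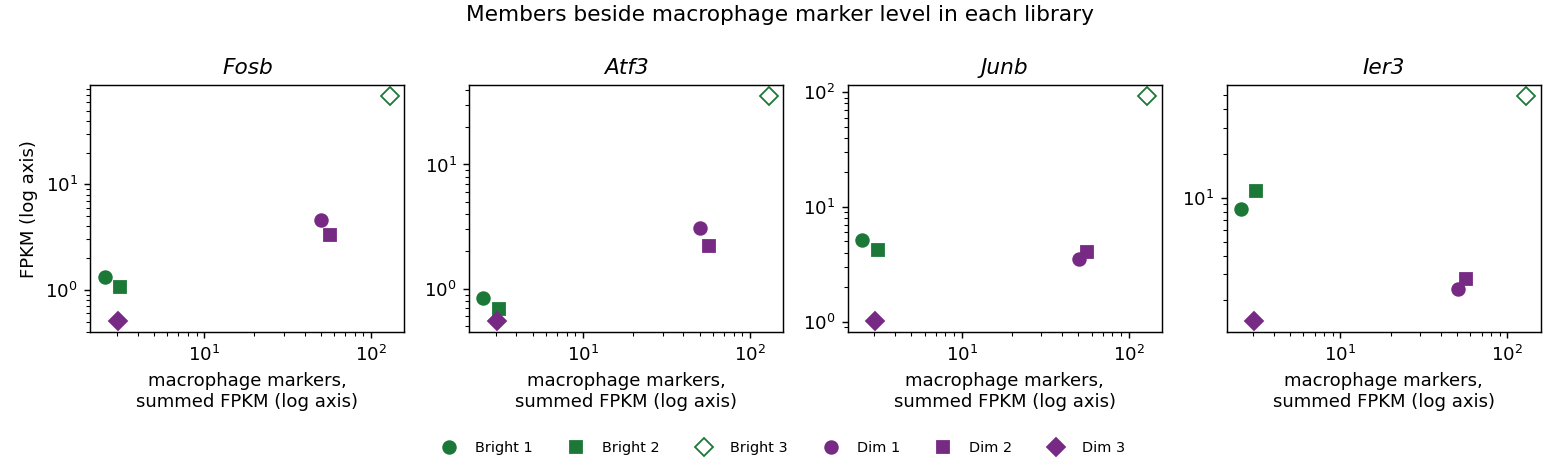
Summed FPKM of 8 macrophage markers (horizontal, log axis) against the FPKM of members (vertical, log axis) in the 6 libraries, Bright and Dim marked by colour. Fosb and Atf3 are lowest in the 3 libraries with marker sums of 2.54 to 3.14 FPKM, and Ier3 is higher in Bright 1 and 2 than in any Dim library at either marker level.

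The group difference was therefore also read against Dim 1 and 2 and against Dim 3 by themselves. Against Dim 1 and 2 alone, limma called 4 members in Bright 1 and 2: Ier3 higher by 1.57 ± 0.20 on the log2 scale (adjusted p = 0.0155) and Ier2 by 0.93 ± 0.19 (0.0411), and Fosb lower, at -1.17 ± 0.20 (0.0262), and Atf3 lower, at -1.03 ± 0.19 (0.0306). The same fit called 6.52% of all genes higher and 5.46% lower. Fos, at 0.10 ± 0.44 (0.918), Jun, at 0.19 ± 0.30 (0.744), and Junb, at 0.25 ± 0.18 (0.449), were not called. Against Dim 3 alone, a choice made after the values had been seen and one that assumes that a lone library varies like the Bright ones, 4 members were called higher, where 3.69% of all genes were, and 0 lower, where 2.05% were (limma, 0 members lower at an unadjusted p under 0.05). The higher ones were Ier3 at 2.12 ± 0.29 (adjusted p = 0.00193), Ier2 at 1.63 ± 0.29 (0.00786), Junb at 1.49 ± 0.28 (0.0117) and Fos at 2.00 ± 0.40 (0.0198). Fosb, at 0.54 ± 0.24 (0.27), and Atf3, at 0.19 ± 0.23 (0.796), were then not called and had changed sign. Both comparisons use Bright 1 and 2 and divide Dim by values already seen, so a call made in both is no added support. A call made in only 1 of them, as for Fosb, Atf3, Fos and Junb, depends on that division. Dim 3 was set apart because these members were lowest there among the Dim libraries, so such calls are no support for a group difference.

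The make-up of the AP-1 pool followed the same libraries. The 7 FOS and JUN transcripts summed to 85.1 and 68.9 FPKM in Bright 1 and 2 and 464 FPKM in Bright 3, against 71.3, 68.8 and 38.3 FPKM in Dim. Jund, the constitutive member, made up 38.1% and 54.6% of that sum in Bright 1 and 2 and 7.14% in Bright 3, against 28.9%, 44.5% and 55.3% in Dim. Fos made up 36.3%, 20.9% and 43.4% in Bright, against 37.0%, 21.1% and 11.8% in Dim. Libraries of the same replicate number thus had nearly the same Fos share for numbers 1 and 2, and Bright 3 and Dim 3 were at the extremes. Fosl2 made up 7.09% and 7.42% in Bright 1 and 2 and 2.74% in Bright 3, against 12.1%, 12.8% and 18.2% in Dim. Its share was thus lower in each Bright library than in any Dim library. In Bright 3 the low share went with the large sum, since Fosl2 itself was at 12.7 FPKM there, its highest level. There is no share over all genes to set beside this. The JUN family together held 51.5%, 65.4% and 38.7% in Bright and 39.7%, 55.5% and 61.4% in Dim, and these overlapped. Shares within 1 sum depend on each other, and they were not tested.

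**Figure D4:**
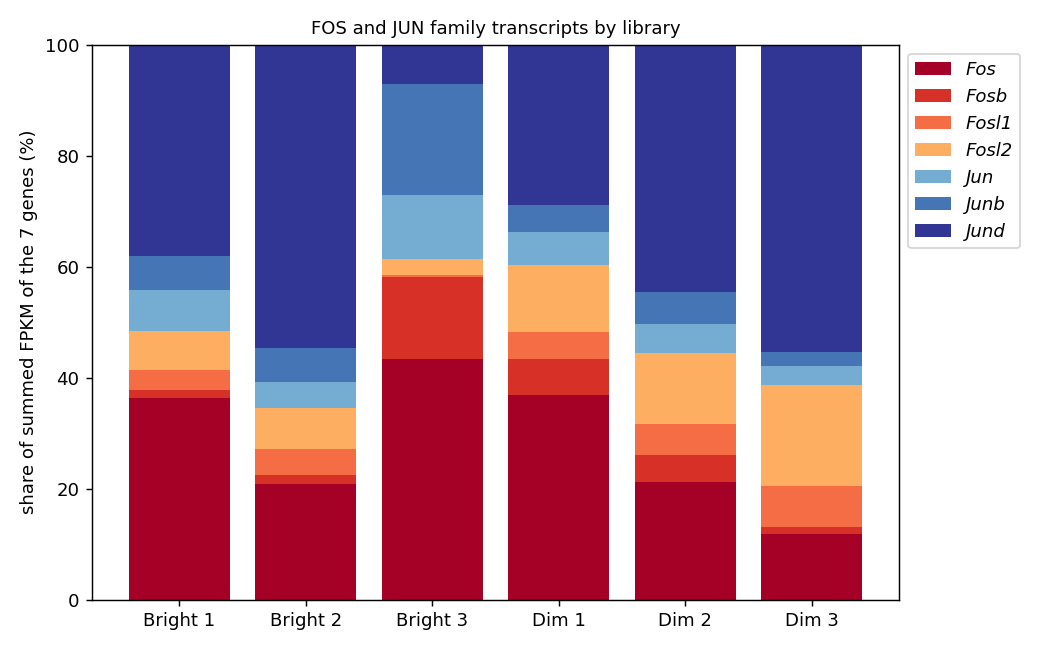
Share of each of the 7 FOS and JUN transcripts in their summed FPKM, in percent, as a stacked bar for each library, Bright left of Dim. Bright 3 differs from all others by its small Jund share (7.14%) and large Fosb share (14.7%), and the Fosl2 share is 2.74% to 7.42% in Bright and 12.1% to 18.2% in Dim.

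The authors' deposited table for all Bright over all Dim libraries lists 7 members as higher at a q-value under 0.05, where 5.07% of its genes are, and 0 as lower, where 2.64% are. The shares in this paragraph are of all 31918 genes, 6271 of which were at 0 in all 6 libraries. They are therefore lower than shares of expressed genes would be, and not on the base of 13416 genes used for limma. In the authors' deposited table the log2 ratio was 3.41 for Junb, 3.34 for Ier3, 2.91 for Fosb, 2.73 for Jun, 2.72 for Atf3, 2.41 for Fos and 1.70 for Ier2, each with q = 0.000921. These 7 genes also share p = 5e-05 in the authors' test, so the q-values do not rank them by firmness. Jund, at 0.44 (q = 0.208), Fosl2, at -0.05 (q = 0.969), and Fosl1, at -0.37 (q = 0.697), did not pass in the authors' deposited table. The authors' deposited tables for single pairs of libraries give the pairs apart: 0 members pass q under 0.05 for Bright 1 over Dim 1 and for Bright 2 over Dim 2, where 0.0439% and 0.0345% of genes are listed higher and 0.0658% and 0.0345% lower. For Bright 3 over Dim 3 the authors' deposited table lists Junb (log2 ratio 6.30, q = 0.0141) and Fos (5.39, q = 0.0314) as higher, where 0.313% of genes are, and 0 members as lower, where 0.00313% are. In the authors' deposited tables Fosb has log2 ratios of -1.84, -1.61 and 6.94 over pairs 1, 2 and 3, and Atf3 has -2.44, -1.64 and 6.37, so both are of opposite sign in pair 3. By contrast, in the authors' deposited tables Ier3 has log2 ratios of 1.78, 1.97 and 5.03 and Ier2 of 0.72, 1.10 and 3.02, all above 0.

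Genes that work with AP-1 were counted from lists of the pathway. Each count is to be read beside the share over all genes tested. With Bright 3 apart limma called 10.6% of all genes higher and 8.37% lower, and with all 6 libraries 12% and 10.5%. At an unadjusted p under 0.05 these shares were 17.9% and 15.9% with Bright 3 apart, and 17.7% in each direction with all 6 libraries. Of 18 tested partners, leucine zipper proteins that dimerise with FOS or JUN or compete with them, limma called 2 higher and 0 lower with Bright 3 apart, with 4 higher and 2 lower at an unadjusted p under 0.05. With all 6 libraries it called 2 higher and 2 lower, the lower ones being Atf1 and Mafa. Jdp2, a dimerisation partner of JUN that represses AP-1, had 5.29, 6.66 and 5.10 FPKM in Bright, against 0.378, 0.653 and 0.449 FPKM in Dim. All Bright libraries were far above all Dim libraries, Bright 3 included, and the log2 fold change was 2.22 ± 0.16 with Bright 3 apart (adjusted p = 0.0012). Batf, a partner of JUN without an activating domain of its own, had 2.70, 5.25 and 3.92 FPKM in Bright, against 0.756, 1.01 and 0.587 FPKM in Dim, with a log2 fold change of 1.44 ± 0.24 (adjusted p = 0.0113).

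Of 29 tested upstream kinases and factors, the MAP kinase chain and the factors that switch on Fos and Jun, 7 were called higher and 0 lower with Bright 3 apart (9 and 3 at an unadjusted p under 0.05, limma), and 8 and 1 with all 6 libraries. The shares of all genes called were 10.6% and 8.37% with Bright 3 apart, and 12% and 10.5% with all 6 libraries. Mapk11, the p38 beta kinase, had 14.2, 24.7 and 11.1 FPKM in Bright, against 2.05, 3.24 and 2.57 FPKM in Dim (log2 fold change 2.46 ± 0.26, adjusted p = 0.00328, with Bright 3 apart). Mapk12, p38 gamma, lies close to Mapk11 on the same strand (chr15:89130585-89140703 and chr15:89142486-89149606), so their calls may not be independent. Mapk12 had 18.7, 32.8 and 12.8 FPKM in Bright, against 4.44, 7.26 and 4.92 FPKM in Dim (2.00 ± 0.28, adjusted p = 0.00645). Bright 3 was the lowest Bright library for both and still above all Dim libraries. Mapk10, the JNK3 kinase, was higher by 1.03 ± 0.15 on the log2 scale (adjusted p = 0.00656) and Map3k5, the stress-activated kinase ASK1, by 1.02 ± 0.12 (adjusted p = 0.00454). Other p38 and JNK kinases of the list, named after their values had been seen, did not follow: Mapk14, p38 alpha, had 60.1, 63.7 and 60.3 FPKM in Bright, against 81.1, 74.5 and 67.3 FPKM in Dim (-0.26, adjusted p = 0.238). Mapk13, p38 delta, was at -0.52 (adjusted p = 0.0966). Mapk8, the JNK1 kinase, was at -0.47 with Bright 3 apart (adjusted p = 0.0851) and at -0.50 with all 6 libraries, where it was called lower (adjusted p = 0.0375), while Mapk9, JNK2, was at 0.57 (0.0771) and at 0.72, where it was called higher (0.0271).

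Of 41 other immediate early genes tested, limma called 13 higher and 3 lower with Bright 3 apart, and 12 higher and 1 lower with all 6 libraries. The fits called 10.6% and 12% of all genes higher, and 8.37% and 10.5% lower. The median log2 fold change of the 41 genes was 0.29 and 0.62 in these fits. Egr2, a zinc finger factor of the early growth response family, had 43.5, 48.7 and 43.0 FPKM in Bright, against 4.94, 3.64 and 3.15 FPKM in Dim. Bright 3 was level with the other Bright libraries in this gene, and the log2 fold change was 3.27 ± 0.19 with Bright 3 apart (adjusted p = 0.000853). Its relative Egr3 had 3.59, 2.41 and 4.28 FPKM in Bright, against 0.279, 0.047 and 0.174 FPKM in Dim (1.77 ± 0.18, adjusted p = 0.00278), and Phlda1 was higher by 1.79 ± 0.15 (adjusted p = 0.00176). Socs3, a feedback inhibitor of cytokine signalling, was more like Ier3, with 10.5, 14.6 and 59.0 FPKM in Bright, against 2.75, 3.43 and 3.19 FPKM in Dim (1.70 ± 0.18, adjusted p = 0.00337). The 3 lower genes were Nr4a3, Gadd45b and Dusp2, named because they are few and after their values had been seen. Dusp2, a phosphatase that removes phosphate from MAP kinases, had 4.77, 2.87 and 4.07 FPKM in Bright, against 13.0, 12.2 and 10.8 FPKM in Dim, and was lower in both fits. Nr4a3 and Gadd45b were lower only in the fit with Bright 3 apart, and Bright 3 was their highest library.

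In Bright 3, 7 of these 41 genes, Klf2, Cyr61, Zfp36, Gadd45b, Nfkbia, Socs3 and Gem, were at least 4-fold above the mean of Bright 1 and 2 on the log2(FPKM + 1) scale, and in Dim 3, 0 of them were at least 2-fold below the mean of Dim 1 and 2. Of all genes tested, 1.39% and 0.507% were.

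**Figure D5:**
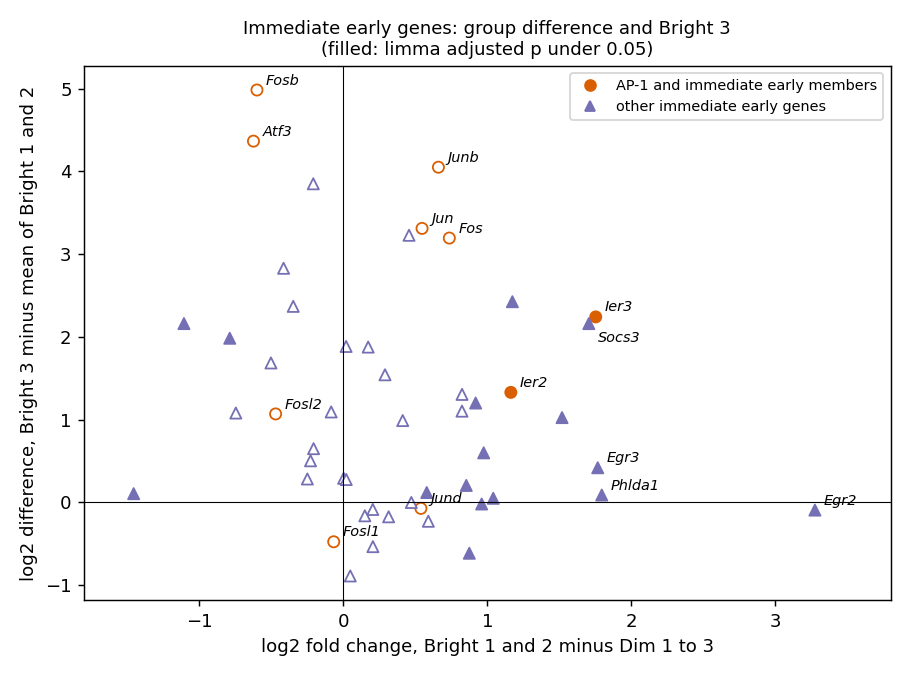
Log2 fold change of Bright 1 and 2 minus Dim (horizontal) against Bright 3 minus the mean of Bright 1 and 2 (vertical), both on log2(FPKM + 1), for the 10 members and 41 other immediate early genes, filled where the limma adjusted p of the group difference was under 0.05. Fosb and Atf3 lie at the top left, with Bright 3 differences of 4.99 and 4.37, and Egr2 at the far right, with a group difference of 3.27 and Bright 3 level with the other Bright libraries.

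Of 17 tested genes known as AP-1 targets, 8 were called higher and 1 lower in either fit (limma), and their median log2 fold change was 0.71 with Bright 3 apart. The shares of all genes called were 10.6% and 8.37% with Bright 3 apart, and 12% and 10.5% with all 6 libraries. Mmp9, a gelatinase, had 15.1, 16.1 and 13.3 FPKM in Bright, against 2.43, 2.05 and 1.56 FPKM in Dim (2.47 ± 0.17 with Bright 3 apart, adjusted p = 0.00118). The growth factor Tgfb1 had 21.2, 27.1 and 17.7 FPKM in Bright, against 6.61, 8.58 and 6.90 FPKM in Dim (1.59 ± 0.18, adjusted p = 0.00381). Bright 3 was the lowest Bright library for both, and the groups did not overlap. S100a6, a calcium-binding protein, was higher by 1.50 ± 0.25 (adjusted p = 0.0112) and Krt18, a keratin, by 1.26 ± 0.17 (adjusted p = 0.00543). The lower gene was Ccnd1, the G1 cyclin, at 44.3, 47.9 and 38.1 FPKM in Bright, against 71.0, 69.7 and 64.0 FPKM in Dim.

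Of 17 genes that modify or degrade AP-1 proteins, limma called 0 higher (2 at an unadjusted p under 0.05) and 1 lower in either fit. This was Sirt1, a deacetylase, with 35.2, 28.2 and 29.5 FPKM in Bright, against 68.0, 46.1 and 50.1 FPKM in Dim (-0.76 ± 0.20 with Bright 3 apart, adjusted p = 0.0443), and without Bright 1, Bright 2, Dim 1 or Dim 3 the adjusted p was 0.0727, 0.184, 0.0596 and 0.101. Of 12 heat shock genes, which answer to stress through another factor, 0 were called with all 6 libraries (0 at an unadjusted p under 0.05, limma) and 1, Hspb1, was called lower with Bright 3 apart. Hspb1, a small heat shock protein, had 0.810 and 0.386 FPKM in Bright 1 and 2 and 20.6 FPKM in Bright 3, against 1.42, 1.72 and 1.26 FPKM in Dim. Bright 3 was again far above the rest, and the log2 fold change was -0.63 ± 0.17 without it (adjusted p = 0.0471, and 0.0518 to 0.215 when any 1 of the 5 libraries was left out) and 0.62 with it (0.744).

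The genes whose levels over the 6 libraries were most like those of Fos and Jun were taken from 9286 other protein-coding genes with a mean of at least 5 FPKM, by Pearson r on log2(FPKM + 1). For Fos they were Osbpl9 (r = 0.976), Trmt1l (0.974), Iffo1 (0.973) and Cpt1a (0.968), and over the 5 libraries without Bright 3 the same genes had r of 0.910, 0.991, 0.896 and 0.972. For Jun they were Cd99l2 (0.993), Lamb2 (0.992), Iffo1 (0.991) and Ivd (0.981), with 0.940, 0.986, 0.971 and 0.821 without Bright 3. Trmt1l shows how little these genes need to move: it had 10.3, 10.2 and 10.5 FPKM in Bright and 10.3, 10.1 and 9.90 FPKM in Dim. The points of each r share their libraries and depth and include Bright 3, so these values describe the order of 6 libraries only.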

How the data were processed

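RNA of 3 Bright and 3 Dim libraries was extracted as total RNA and primed with oligo d(T), per the labels' protocols. Reads were processed with TopHat2 2.1.1 and Cufflinks 2.2.1 against mm9, per the submitters' processing notes. The authors deposited FPKM, fragment levels corrected for transcript length and sequencing depth, for 31918 genes, and tables of their own comparisons with a log2 ratio, a p-value and a q-value, per the file headers. The settings of these tests are not given in the sources used here. Of 31584 gene identifiers found in GENCODE M21, 80.9% had the coordinates of GRCm38, so coordinates are given on that build although the notes name mm9.

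The FPKM were used as log2(FPKM + 1), unscaled, so fold changes of low genes are smaller than ratios of means. The 13416 genes that reached 1 FPKM in 3 or more of the 6 libraries were tested in limma 3.58.1 (R 4.3.3) with trend and robust moderation, two-sided, with Benjamini-Hochberg adjustment over all of them, with all 6 libraries and with Bright 3 apart. Read counts were not used here, so depths are approximate and no counting intervals are given. No per-sample column was left unused.

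The members and gene lists were chosen with earlier results of these data known. Named genes were all members, the 4 called genes of each list with the largest fold change with Bright 3 apart, Id4 and Kit, and the 4 genes most like Fos and Jun. Genes outside this rule were named because they are few, overlap a member or mark a cell type. Alternatives were other pseudocounts, filters, scalings and moderation, a replicate block, and each library left out.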

Additional observations from a re-analysis of the deposited data

How the results depend on the processing

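With all 6 libraries, members called numbered 0 with no filter on low values (limma, 3 at an unadjusted p under 0.05) and 3 with trimmed mean scaling, where Jund was added (adjusted p = 0.0492). Leaving out 1 library gave 0 to 2 members, 1957 to 2603 genes and 25 to 36 related list genes, beside 2, 3016 and 36 in full. The 0 came without Dim 1 (1 at an unadjusted p under 0.05) and without Dim 3 (2). With Bright 3 apart, no filter left 1 member, Ier3, and leaving out 1 library gave 1 (without Bright 1 or Bright 2) to 4 members (without Dim 3), 1092 to 1965 genes and 20 to 34 related genes, beside 2, 2541 and 36. Bright 1 and 2 against Dim 3 alone, chosen after seeing the data, gave 4 members, 770 genes and 19 related genes. Directions also reversed. With all 6 libraries and 1 library left out, log2 fold changes ranged from -0.47 to 0.11 for Fosl2 (0.01 without Bright 1, 0.11 without Bright 2), and leaving out Bright 3 gave the low end of -0.60 to 1.94 for Fosb, -0.62 to 1.59 for Atf3 and -0.63 to 1.35 for Hspb1. With Bright 3 apart, Fosl1 ranged from -0.17 to 0.023 (without Dim 2). Against Dim 3 alone Fosl1 was 0.14, Fosb 0.54, Atf3 0.19 and Hspb1 -0.51. The cause was not tested. Of 790 results for single genes under these alternatives, 723 kept their direction and their side of the threshold, 42 lost the call, 14 gained it and 11 reversed.

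The labels number the libraries 1 to 3 in each group but do not say whether the numbers mark pairs. The main fits used no pairing. Deviations of same-numbered libraries correlated at 0.44, 0.51 and -0.19. Bright 1 with Dim 2 and Bright 2 with Dim 1 were at -0.55 and -0.60, so numbers 1 and 2 matched across the groups. Bright 3 correlated better with Dim 1 (0.14) than with Dim 3. Since Bright 3 holds somatic RNA, number 3 cannot settle whether the libraries are paired. With the replicate number as a block, all 6 libraries gave 1 of 10 members, 5453 of the 13416 genes tested and 59 related genes. The member was Jund (limma adjusted p = 0.00515), and Ier2 and Ier3 were not called (0.185 and 0.165). With Bright 3 apart the block gave 6 of 10 members (3 higher, 3 lower), 7785 of the 13416 genes tested and 99 related genes. The members' count is to be read beside that large share of all genes. This fit has little left to estimate the spread from. Dim 3 is alone in its block, and only Bright 1 and 2 against Dim 1 and 2 inform the difference. Precision is limited by 2 or 3 libraries a group and, for Atf3, by roughly 36.0 reads in Bright 1.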

Other observations

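Several genes known as AP-1 targets were too low to be tested. The stromelysins Mmp3 and Mmp10 were listed at 0 in 5 of the 6 libraries each, and the collagenase Mmp13 stayed at or under 0.135 FPKM in all. The cytokine Il6 was at 0, 0.0885 and 1.35 FPKM in Bright and at 0, 0.0134 and 0 FPKM in Dim. The plasminogen activator Plau was at 0.543, 0.301 and 3.32 FPKM in Bright and 0.766, 0.551 and 0.499 FPKM in Dim, so Bright 3 was the highest library for both. Maf, a transcription factor with a leucine zipper, was at 0.0478, 0.114 and 3.10 FPKM in Bright and 0.888, 0.592 and 0.104 FPKM in Dim. Like Fosb and Atf3, Maf was highest in Bright 3 and higher in Dim 1 and 2 than in Bright 1 and 2. These genes were picked after their values had been seen, and no difference among them was tested.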
